A study of Homo sapiens with 12 samples.

Results

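The HOXD genes of HEK293 cells are described here, 9 of the 25268 gene symbols measured, chosen by name as HOXD1, HOXD3, HOXD4, HOXD8, HOXD9, HOXD10, HOXD11, HOXD12 and HOXD13. HEK293 is a widely used line of human embryonic kidney origin. The cells were transiently transfected with 2 µg of pCMV6-HIS-HA-RBMX, a plasmid that expresses tagged RBMX. Control cells received the mock empty vector. RBMX is an RNA-binding protein known for roles in splicing, and the study asked whether it controls mRNAs of homeotic genes. RNA was taken from sucrose gradients of 3 cultures per vector, which gave 12 libraries in 4 groups of 3, total and polysomal RNA for each vector. Total RNA was pooled from a fixed share of every gradient fraction and polysomal RNA came from the fractions that hold mRNAs with several ribosomes, and both were made after nuclei had been removed, so that total RNA here is that of the cytoplasmic lysate. All samples went through the same transfection and cycloheximide treatment. The transfection was transient, so that a library averages over transfected and untransfected cells, and in such bulk RNA fewer expressing cells and less RNA per cell cannot be told apart.

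HOX genes encode homeodomain transcription factors that give cells their position along the body axis, and in vertebrates they lie in clusters in which the order of the genes mirrors the order of their expression in the embryo. The 5′ end of the HOXD cluster holds the posterior genes, HOXD9 to HOXD13, which pattern the limb, the digits and the urogenital tract, and the 3′ end holds the anterior genes. HOX proteins bind DNA together with TALE homeodomain partners such as PBX and MEIS, and whole clusters are kept silent or active by the Polycomb and trithorax proteins.

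In the GENCODE annotation of GRCh38 the cluster lies on chromosome 2, and all 9 genes are on the plus strand. HOXD13 starts it at 176092891 and HOXD1 closes it at 176190907, and the start of HOXD1 lies 95.69 kb from that of HOXD13. HOXD12, HOXD11, HOXD10, HOXD9 and HOXD8 follow HOXD13 at 6.839, 11.32, 15.9, 29.83 and 36.8 kb. The gene model of HOXD3 opens with a long transcript at 43.72 kb that runs over HOXD4, which starts at 58.33 kb. A pair of antisense transcripts lie in the cluster. HOXD-AS2 spans HOXD9 and HOXD8 from 176121611 to 176137098, and HAGLR, also known as HOXD-AS1, runs through the 3′ part from 176164051 to 176188958. Exons are shared over 452 bases by HOXD10 and HOXD11, 379 bases by HOXD3 and HOXD-AS2, 158 bases by HOXD1 and HAGLR, and 134 bases by HOXD3 and HAGLR. The processing notes name hg19 for the FPKM values, and whether the gene models behind these values share any of these exons was not checked. Under the models given here, HOXD10 and HOXD11 lie on the same strand, so that reads from the stretch they share fit both genes. The other overlaps are with antisense transcripts, and as the library kit named in the labels does not keep the strand in its standard form, reads from these stretches cannot be assigned to a single gene either.

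Short stretches just upstream of the start are shown for HOXD13, HOXD8, HOXD11 and HOXD3, the only members whose window touched no annotated exon. HOXD13 and HOXD8 were lower in all RBMX libraries, and the groups of HOXD11 and HOXD3 overlapped. Each line gives bases 50 to 21 before the RefSeq start on GRCh38.p14, plus strand, in windows that touch no exon of the GENCODE annotation. Capitals mark TATAAA (the TATA box), CCAAT (the CCAAT box) and CACGTG (the E-box), searched on both strands, and the motifs were chosen after the sequences had been seen.
HOXD13, chr2:176092671-176092700: cctcccaacctgaacttcgttTTTATAAAc
HOXD8, chr2:176129655-176129684: ggcgcggcgctccgtccgtcggccgtagcg
HOXD11, chr2:176107230-176107259: gcacgtcagcgcccggtggggatttttgct
HOXD3, chr2:176157257-176157286: gacCACGTGATTGGcgaaataattaattca
In HOXD13 the capitals hold TATAAA and its reverse complement, which overlap, and in HOXD3 they hold CACGTG next to the reverse complement of CCAAT. RefSeq gave an upstream sequence for 8 of the 9 members. Over the whole 250 bases before the start, TATAAA was present in 1 of these 8, HOXD13, against 10.7% of 35116 promoters. CCAAT was present in 6 of 8 members (32% of all promoters) and CACGTG in 5 of 8 (6.34% of all promoters). HOXD8 held none of these motifs in that window, where it had 28 CpG sites. HOXD1 had 31, HOXD12, HOXD13, HOXD3, HOXD10 and HOXD11 had 16 to 23 and HOXD4 had 4, against a median of 11 over all promoters. RefSeq and GENCODE starts differ, and the windows of HOXD11, HOXD10, HOXD4 and HOXD3 lie within their GENCODE gene models. Those of HOXD12, HOXD8 and HOXD1 run past the GENCODE start. HOXD13 held each of these motifs in its 250 bases. Whether the motifs bear on the levels in RBMX cells was not tested.

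Values are FPKM, fragments scaled by transcript length and by the size of the library, which allows levels of different genes to be set side by side. The sum of all FPKM values of a library ran from 817528 to 1903320, the number of fragments is unknown, and replicates of a group correlated with Spearman coefficients of 0.976 to 0.998 across genes. RBMX itself checked the labels, at 87.4 to 147.8 FPKM in the 6 control libraries and 1072 to 2073 FPKM in the 6 RBMX libraries. Of 9 genes listed as markers of HEK293, 8 were measured above the filter, and PAX8, a renal gene, stayed at or below 0.0343 FPKM. Control culture 3 stood apart, with the intermediate filament gene VIM at 248 FPKM in total and 217 FPKM in polysomal RNA, where the other 10 libraries held 486 to 577 FPKM. Of 4 markers of other cell types PTPRC (blood) and PECAM1 (endothelium) were at or below 0.0344 FPKM and ALB (liver) at or below 0.226 FPKM in every library. COL1A1, a collagen of fibroblasts, ran from 3.14 to 5.97 FPKM in control and from 5.47 to 8.61 FPKM in RBMX libraries. Within each fraction its RBMX libraries all lay above its control libraries, as they did in both fractions for 6.41% of all genes. The summed level of these 4 markers was 3.22 to 5.26 FPKM in control total and 5.73 to 6.67 FPKM in RBMX total libraries, and its part in the results below was not tested.

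HEK293 cells expressed 8 of the 9 HOXD genes, with the highest levels in the posterior part of the cluster, at HOXD10 and HOXD11. In control total RNA the level of HOXD10 was 30.3 ± 1.59 FPKM and that of HOXD11 was 24.2 ± 0.859 FPKM (SD, n = 3 here and for all group means). HOXD4 (12.6 ± 1.37 FPKM), HOXD8 (12.3 ± 1.42 FPKM), HOXD13 (11.7 ± 0.689 FPKM) and HOXD9 (9.75 ± 3.26 FPKM) formed a middle tier, in which each gene overlapped the next in its range over the replicates. HOXD3 followed at 4.77 ± 0.315 FPKM and HOXD1, the 3′ end of the cluster, at 2.33 ± 0.246 FPKM, and neither overlapped its neighbours in the order. HOXD12 was at 0.0523, 0.126 and 0.163 FPKM in the control total libraries and reached at most 0.295 FPKM in any library, so that it failed the filter of a mean of 0.5 FPKM and was not tested. It lies between HOXD13 and HOXD11, which were both measured at many times its level.

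**Figure D1:**
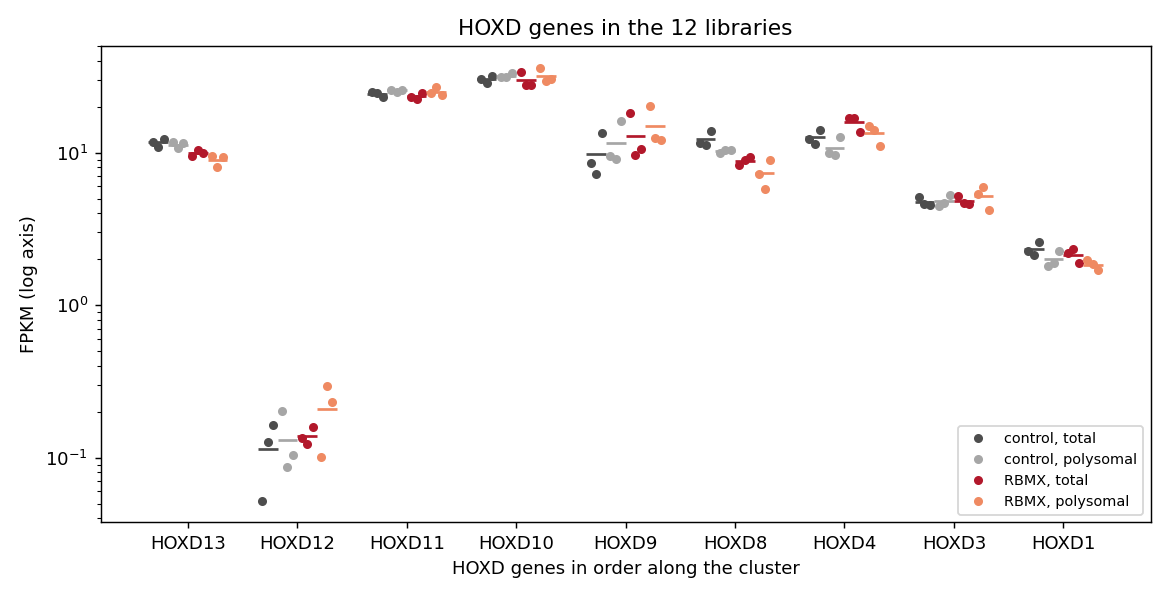
FPKM of the 9 HOXD genes in the 12 libraries on a log axis, with genes placed in cluster order; points are libraries and short lines are group means of 3 libraries. HOXD10 and HOXD11 lie highest in every group, HOXD12 lies below 0.3 FPKM in every library, and HOXD9 spreads widest among the other 8.

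The order at the ends held in all 4 groups: HOXD10, then HOXD11 at the top, and HOXD3, HOXD1 and HOXD12 at the bottom. The middle tier changed its order, and HOXD9 had the highest mean of its 4 genes in polysomal RNA of both vectors, though its replicates overlapped those of the next gene. HOXD10 ranged from 27.6 to 36.1 FPKM over the 12 libraries and exceeded 74.6% of the 14676 genes tested by its mean, whereas HOXD1, from 1.69 to 2.61 FPKM, exceeded 15.2%.

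The summed level of the 9 genes was almost the same in every group. It was 108.0 ± 7.70 FPKM in control total, 107.8 ± 8.45 FPKM in RBMX total, 108.5 ± 8.13 FPKM in control polysomal and 108.9 ± 9.84 FPKM in RBMX polysomal RNA, and the groups overlapped. Over the 12 libraries the sum ran from 101 to 120 FPKM. The HOXA cluster summed to 172 to 226 FPKM over 11 genes, HOXB to 153 to 198 FPKM over 10 genes and HOXC to 72.4 to 90.0 FPKM over 9 genes, so that HOXD lay between HOXC and the remaining clusters in every library.

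The comparison of RBMX with control cells asked whether excess RBMX altered the level of these mRNAs. HOXD8 and HOXD13 were lower in every RBMX library than in any control library, in total as well as in polysomal RNA, but no member passed the test across all genes. HOXD4 and HOXD9 had higher means in RBMX cells with overlapping replicates, and HOXD10, HOXD11, HOXD3 and HOXD1 differed by at most 0.09 on the log2 scale. Each fraction was tested with limma on log2(FPKM + 1), a scale that understates changes of low genes, with p-values adjusted by the Benjamini-Hochberg method over all genes and a threshold of 0.05. In total RNA 0 of 8 tested members passed, where 0.164% of all genes did, and 3 members had an unadjusted p under 0.05. The same count for polysomal RNA was 0 of 8, against 0.0477% of all genes, with 2 members under an unadjusted p of 0.05. Of all genes 18.8% and 11.7% had an unadjusted p under 0.05 in these fractions.

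HOXD8, a gene of the central cluster, showed the lowest fold change. Its control total libraries held 11.6, 11.3 and 13.9 FPKM and its RBMX total libraries 8.33, 8.97 and 9.31 FPKM. In polysomal RNA the control libraries held 10.0, 10.3 and 10.5 FPKM and the RBMX libraries 7.22, 5.76 and 8.97 FPKM. The vectors did not overlap in either fraction. On the log2 scale RBMX cells differed by -0.42 ± 0.095 (SE, adjusted p = 0.175 by limma) in total and by -0.46 ± 0.15 (SE, adjusted p = 0.403 by limma) in polysomal RNA.

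HOXD13, the terminal gene of the cluster and the gene of digit patterning, was at 11.8, 10.9 and 12.3 FPKM in control total and 9.54, 10.4 and 9.96 FPKM in RBMX total libraries. Its polysomal values were 11.7, 10.7 and 11.5 FPKM in control and 9.56, 8.01 and 9.38 FPKM in RBMX libraries. Here too all RBMX libraries lay below all control libraries. Its log2 difference was -0.21 ± 0.067 (SE, adjusted p = 0.209 by limma) in total and -0.30 ± 0.091 (SE, adjusted p = 0.400 by limma) in polysomal RNA. For both genes the two-sided exact permutation p was 0.1 in each fraction, the smallest that 3 against 3 libraries allow. Any gene whose groups do not overlap gets this p, so it adds nothing to the lack of overlap.

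In total RNA 2 of 8 members thus lay lower without overlap, against 15.4% of all genes, and 0 lay higher, against 11.9%. The counts in polysomal RNA were again 2 lower, against 12.5%, and 0 higher, against 10.0%. Lower in both fractions were 2 of 8, against 7.32% of all genes, and higher in both 0, against 6.41%. These shares of so few genes are descriptions, and the median log2 fold change of the 8 members was -0.036 in total and -0.019 in polysomal RNA, where the median of all genes was 0 in both.

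**Figure D2:**
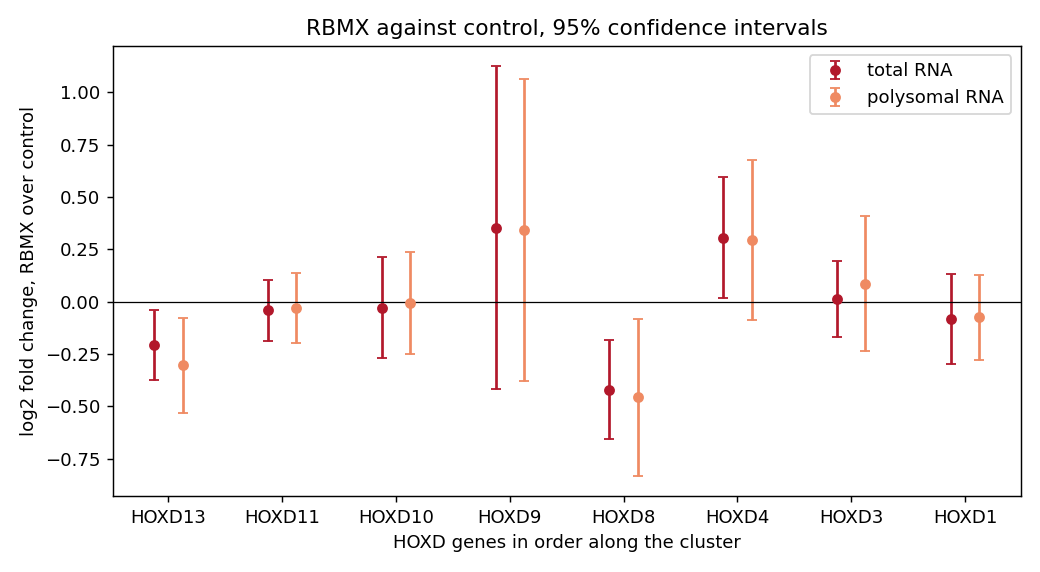
log2 fold change of RBMX over control for the 8 tested HOXD genes in total and in polysomal RNA, in cluster order; points are limma estimates from 3 against 3 libraries and bars their unadjusted 95% confidence intervals. The intervals of HOXD13 and HOXD8 lie below 0 in both fractions, that of HOXD4 lies above 0 in total RNA only, and no gene passed after adjustment.

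HOXD4 was at 12.3, 11.4 and 14.1 FPKM in control total and 16.8, 16.9 and 13.7 FPKM in RBMX total libraries. In polysomal RNA it was at 9.91, 9.62 and 12.6 FPKM in control and 14.9, 14.1 and 11.1 FPKM in RBMX libraries. In each fraction the lowest RBMX library lay below the highest control library and the groups overlapped. Its log2 difference was 0.30 ± 0.12 (SE, adjusted p = 0.250 by limma) in total and 0.29 ± 0.15 (SE, adjusted p = 0.473 by limma) in polysomal RNA. Within each library the ratio of HOXD4 to HOXD8 was 0.930 to 1.20 in the control libraries and 1.23 to 2.45 in the RBMX libraries, a ratio chosen after the values had been seen and therefore not tested.

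HOXD9 varied most among the tested members. It was at 8.56, 7.26 and 13.4 FPKM in control total and 18.3, 9.71 and 10.5 FPKM in RBMX total libraries. In polysomal RNA it was at 9.52, 9.07 and 16.1 FPKM in control and 20.2, 12.4 and 12.0 FPKM in RBMX libraries. Control culture 3 and RBMX culture 1 were high in both of their libraries, the groups overlapped, and the highest library held 2.78 times the lowest. In total RNA its log2 difference was 0.35 ± 0.31 (SE, adjusted p = 0.560 by limma), and in polysomal RNA 0.34 ± 0.29 (SE, adjusted p = 0.622 by limma). The difference in total RNA was 0.59 without control replicate 3 (limma adjusted p = 0.272) and 0.090 without RBMX replicate 1 (limma adjusted p = 0.929), the highest and the lowest value when each replicate was left out in turn.

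The remaining members lay close to 0. HOXD11 was the most even gene of the cluster, with 22.6 to 26.8 FPKM over the 12 libraries and a log2 fold change of -0.042 (95% confidence interval -0.19 to 0.10) in total RNA. For HOXD10, the most abundant member, the log2 fold change was -0.030 in total and -0.0061 in polysomal RNA, and the control total values of 30.3, 28.8 and 32.0 FPKM overlapped the RBMX total values of 33.9, 27.6 and 27.9 FPKM. HOXD3, from 4.22 to 5.95 FPKM over all libraries, differed by 0.013 in total and 0.086 in polysomal RNA on the log2 scale. HOXD1 differed by -0.085 in total and -0.075 in polysomal RNA. HOXD12 was at 0.135, 0.122 and 0.158 FPKM in RBMX total libraries, within its control range, and at 0.201, 0.0868 and 0.104 FPKM in control polysomal against 0.102, 0.295 and 0.230 FPKM in RBMX polysomal libraries.

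The effect of RBMX on polysomal RNA did not differ detectably from that on total RNA for any member. The difference between both effects ran from -0.096 for HOXD13 to 0.074 for HOXD3 on the log2 scale, and 0 of 8 members passed limma's interaction test, where 0.0204% of all genes did. None of the 8 had an unadjusted p under 0.05 in it, against 0.6% of all genes. With the culture as a block the interval of this difference for HOXD8 was -0.41 to 0.33, so that a moderate difference in either direction remains possible.

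Polysomal RNA was then set against total RNA of the same culture, which shows how strongly an mRNA is loaded with ribosomes relative to the other mRNAs of the libraries. The members divided: HOXD9 and HOXD10 were higher in polysomal than in total RNA in all 6 cultures, and HOXD8, HOXD4 and HOXD1 were lower in all 6. Without regard to the culture 0 of 8 members passed the limma test over both vectors, where 8.93% of all genes did. An unadjusted p under 0.05 was found for 4 members and for 25.8% of all genes. By the extraction protocol both libraries of a culture come from the same gradient, although the labels name a pair of dishes per transfection, and with the culture as a block 5 of 8 members passed, against 23.9% of all genes. HOXD9 and HOXD10 were the 2 higher and HOXD8, HOXD4 and HOXD1 the 3 lower in polysomal RNA, and of all genes 1608 passed as higher and 1904 as lower. Within the cells of a single vector, without the block, 0 of 8 members passed in control cells, where 0.0818% of all genes did. In RBMX cells 0 of 8 passed, where 1.34% of all genes did. In either, 0 members had an unadjusted p under 0.05, against 8.04% of all genes in control and 23% in RBMX cells. With the block 0 of 8 passed again in each, where 6 of 14676 genes passed in control and 4 in RBMX cells. An unadjusted p under 0.05 was then found for 4 members in control cells and 3 in RBMX cells. The share of all genes under that p was not determined with the block, so these 2 counts cannot be read as particular to the members.

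HOXD9 had polysomal to total ratios of 1.11, 1.25 and 1.20 in the control cultures and 1.11, 1.28 and 1.14 in the RBMX cultures. All 6 lay above 1, although the level of the gene itself varied 2.78 times. The log2 difference was 0.22, with a limma adjusted p of 0.573 without and 0.0120 with the block. HOXD10 followed with ratios of 1.03 to 1.09 and a log2 difference of 0.087 (limma adjusted p = 0.457 without and 0.0436 with the block).

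HOXD4, an anterior gene, had ratios of 0.804, 0.847 and 0.895 in control cultures and 0.889, 0.834 and 0.810 in RBMX cultures. Its log2 difference was -0.22, with a limma adjusted p of 0.160 without and 0.00741 with the block. HOXD8 had ratios of 0.862, 0.918 and 0.755 in control cultures and 0.867, 0.642 and 0.963 in RBMX cultures, and its log2 difference was -0.25 (limma adjusted p = 0.0993 without and 0.0457 with the block). HOXD1 had ratios from 0.786 to 0.900 and a log2 difference of -0.15 (limma adjusted p = 0.132 without and 0.0232 with the block). For these 5 genes the exact sign-flip permutation test over the 6 cultures gave a two-sided p of 0.03125, the smallest it allows. Any gene with the same direction in all 6 cultures gets this unadjusted p, so it adds nothing to that count. Among all genes 16.0% were higher in polysomal RNA in 6 of 6 cultures and 16.5% lower, against 2 and 3 of the 8 members.

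**Figure D3:**
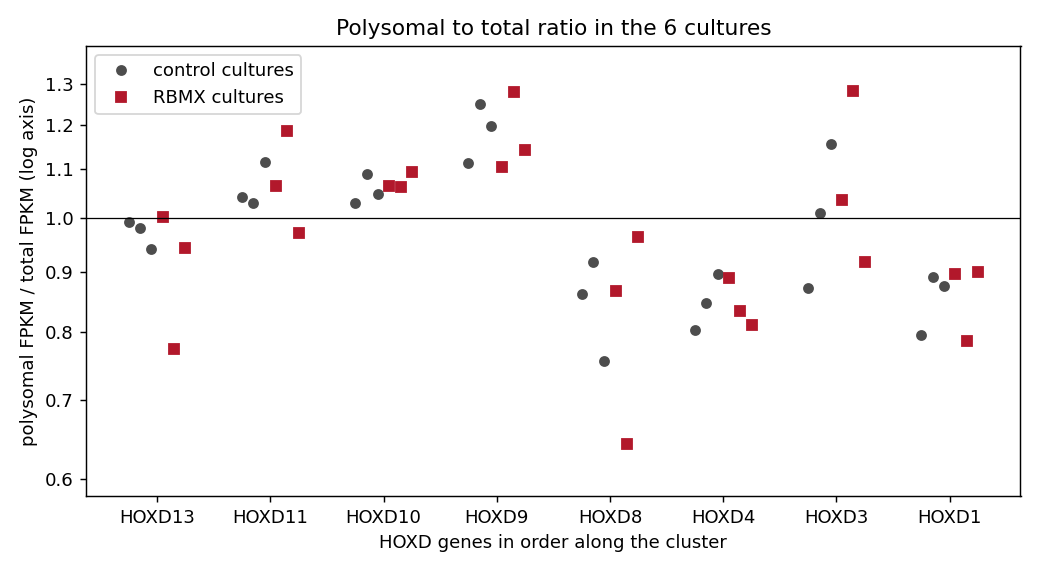
Ratio of polysomal to total FPKM on a log axis for the 8 tested HOXD genes in cluster order, 1 point per culture. The points of HOXD10 and HOXD9 lie above 1 in all 6 cultures, those of HOXD8, HOXD4 and HOXD1 lie below 1 in all 6, and HOXD13, HOXD11 and HOXD3 have points on both sides.

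HOXD11 was higher in polysomal RNA in 5 of 6 cultures and HOXD13 lower in 5 of 6, and neither passed with the block (limma adjusted p = 0.142 and 0.221). HOXD3 was higher in 4 of 6, with ratios from 0.872 to 1.28 (limma adjusted p = 0.642). HOXD12 was too low for its ratios to be read. When each culture was left out of the fit with the block, HOXD9 and HOXD4 passed in all 6 fits. Over all genes 839 (without RBMX culture 3) to 3117 (without RBMX culture 2) passed in these fits, against 3512 with every culture kept. HOXD1 passed in 3 of these fits, HOXD10 only when RBMX culture 2 was left out, and HOXD8 in 0 of them, at a limma adjusted p of 0.0548 to 0.0954.

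The other HOX clusters, fitted the same way, called fewer of their members with the block. Of 28 tested HOXA, HOXB and HOXC genes 1 was higher and 5 were lower in polysomal RNA, 21.4% in all, against 62.5% of the 8 HOXD genes and 23.9% of all genes. Whether the clusters differ in this was not tested.

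Across libraries some members varied together. Over the 12 libraries, which share cultures and scaling, log2 levels of HOXD13 and HOXD8 had a Pearson r of 0.920, and 0.720 after the group means were removed. HOXD10 and HOXD9 had an r of 0.784, and 0.908 within groups. HOXD4 and HOXD1 had an r of 0.492, and 0.931 within groups. HOXD8 and HOXD3 ran opposite within groups (r = -0.772). These pairs were picked from all pairs of tested members for their strong r. Other pairs were weak, such as HOXD10 and HOXD8 (r = -0.065), or negative, such as HOXD11 and HOXD4 (r = -0.511). How often other pairs of genes reach such values was not tested. The genes whose levels were most like those of HOXD10, the most abundant member, were TIAF1 (r = 0.884), ZSCAN30 (r = 0.878) and SLC9A3 (r = 0.857), small RNA genes left aside.

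**Figure D4:**
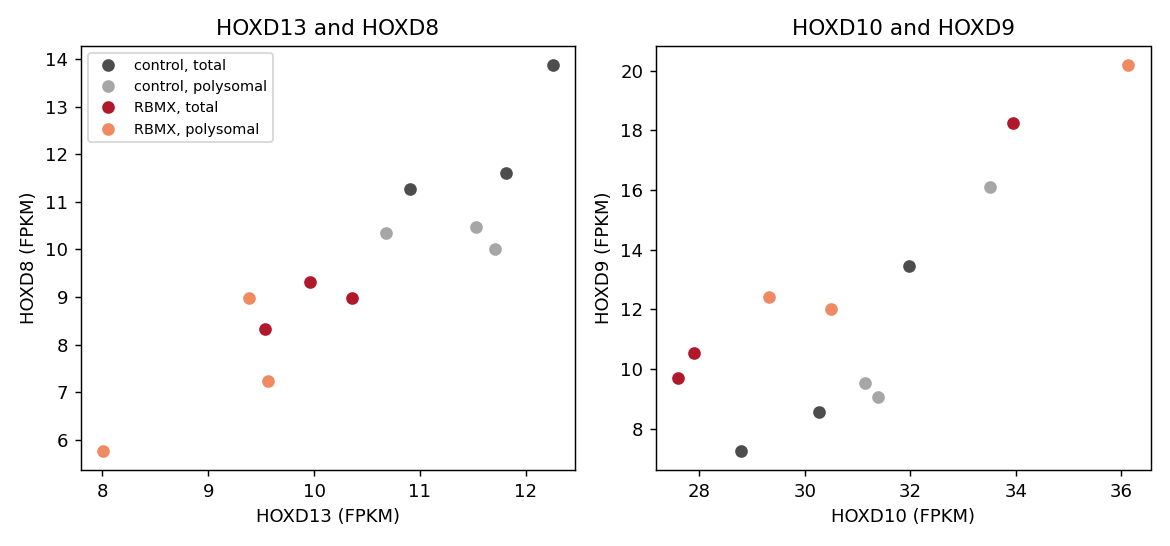
FPKM of HOXD8 against HOXD13 (left) and of HOXD9 against HOXD10 (right), 1 point per library and coloured by group. On the left the 6 RBMX libraries lie below and to the left of the 6 control libraries, and on the right the libraries of control culture 3 and RBMX culture 1 lie highest.

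The antisense transcript HAGLR, which starts beside HOXD1, was lower in RBMX cells like HOXD13 and HOXD8. It was at 10.4, 9.63 and 10.4 FPKM in control total and 8.27, 8.59 and 8.28 FPKM in RBMX total libraries. In polysomal RNA it was at 9.38, 9.17 and 10.3 FPKM in control and 7.33, 6.91 and 7.26 FPKM in RBMX libraries. No library of either vector overlapped with the other, and the log2 fold change was -0.25 in total (adjusted p = 0.176 by limma) and -0.38 in polysomal RNA (adjusted p = 0.400 by limma). Its level had an r of 0.942 with HOXD13 over the 12 libraries and of 0.713 within groups, in both cases the highest it had with any tested member. HAGLR was also lower in polysomal than in total RNA in 6 of 6 cultures, with ratios of 0.804 to 0.992 (limma adjusted p = 0.0491 with the block). HOXD-AS2, whose exons overlap the start of the HOXD3 gene model, was at 2.204 to 4.984 FPKM with overlapping vectors and had polysomal to total ratios of 0.460 to 0.951 (limma adjusted p = 0.0467 with the block).

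Of the 7 listed genes of the locus besides the members, 6 were tested and 0 passed between the vectors in either fraction. KIAA1715 (LNPK), a gene of the endoplasmic reticulum beyond the 5′ end, and ATF2, a bZIP transcription factor, were also lower in RBMX cells without overlap in both fractions. The log2 fold change in total RNA was -0.28 for KIAA1715 (limma adjusted p = 0.183) and -0.22 for ATF2 (limma adjusted p = 0.250). With HAGLR these were 3 of the 6 tested, against 7.32% of all genes. MTX2, a mitochondrial gene beyond the 3′ end, overlapped in both fractions, as did HOXD-AS2 and ATP5G3 (log2 fold change of ATP5G3 0.073 in total RNA, limma adjusted p = 0.573). EVX2, the homeobox gene next to HOXD13, stayed at or below 0.0712 FPKM.

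Among the other HOX genes 0 of 28 tested passed in either fraction, and 8 were lower in RBMX cells in both fractions without overlap, among them HOXC10 (log2 fold change -0.38 in total RNA, limma adjusted p = 0.170) and HOXB9 (-0.30, limma adjusted p = 0.181). Of all genes 7.32% were lower and 6.41% higher in both fractions in this way, and of these 28 genes 0 were higher. The median log2 fold change of these 28 genes was -0.063 in total and -0.15 in polysomal RNA, against -0.036 and -0.019 for the HOXD members. Of 9 TALE partners 0 passed, and PBX2 and PBX3 were lower in both fractions without overlap (2 of 9, against 7.32% of all genes), with a log2 fold change of -0.33 for PBX3 in total RNA (limma adjusted p = 0.207). Of 31 Polycomb and trithorax genes 0 passed, while EED, a core Polycomb subunit, and KDM6A, a histone demethylase, were higher and SCMH1 was lower in both fractions without overlap. These 2 higher and 1 lower of 31 lie near or below the shares of all genes, 6.41% and 7.32%. The log2 fold change of EED was 0.32 in total RNA (limma adjusted p = 0.176).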

How the data were processed

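RNA libraries of total and polysomal RNA from 6 HEK293 cultures were analysed. The authors deposited FPKM values for 25268 gene symbols, and the submitters' processing notes name CASAVA 1.8, TopHat2 2.0.13, Cufflinks 2.2.1, Cuffnorm and hg19, while the methods of the paper describe an alignment to another build. Columns were matched to samples by their description, with 0 left unmatched. FPKM holds no fragment counts, so depth is unknown and no count model was used.

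Log2(FPKM + 1) values of the 14676 genes with a mean of at least 0.5 FPKM were fitted in R 4.3.3 with limma 3.58.1 (lmFit, eBayes with trend) and adjusted by the Benjamini-Hochberg method. Vectors were compared in each fraction on 6 libraries, and fractions per vector and over all 12 libraries. Single members were also tested by exact permutation. P-values of the vector comparisons in a fraction measure the spread between 3 cultures per vector. Fits of the fractions and of the interaction without the block count both libraries of a culture as independent. With the culture as a block, p-values measure the spread of the polysomal minus total difference between cultures. The vector fits were tested on simulated data with known changes, which were larger than those of the HOXD genes. The fits of the fractions, of the interaction and with the block were not tested in this way. Figures used Python 3.11.15 and matplotlib 3.10.9. Positions came from GENCODE 29 and upstream sequences from RefSeq, on GRCh38.

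All 9 HOXD genes are named. From other lists, only genes without overlap in the same direction in both fractions, neighbours of the locus and markers of cell types are named. The genes most correlated with HOXD10 are named as well. Members and lists were chosen with earlier results of these data known. Total and polysomal libraries with the same vector and number were taken as a pair from the same gradient, as the protocol describes. Across genes, the deviations of such a pair from the means of its groups had correlations of 0.610, 0.690 and 0.835 in control and 0.222, 0.0243 and 0.662 in RBMX cultures. Alternatives were a pseudocount of 0.1, a minimum of 0.1 or 1 FPKM, all genes above 0, quantile normalization, median-ratio rescaling, eBayes with no trend, a replicate block, all 12 libraries in the same fit, and each replicate left out. The block without each culture was added after seeing the data.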

Additional observations from a re-analysis of the deposited data

How the results depend on the processing

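No HOXD member passed between the vectors or in the interaction under any alternative run. HOXD13 and HOXD8 stayed lower and HOXD4 and HOXD9 higher in RBMX cells in both fractions under all 15 alternatives. The limma adjusted p ran from 0.125 to 0.539 for HOXD8 in total RNA. Filters, eBayes with no trend, the block and the joint fit leave the difference between group means unchanged for any gene. As the groups of HOXD13 and HOXD8 did not overlap, leaving out a replicate could not change their sign either. For these genes only the rescaling and quantile normalization could have done so. The replicate block for the culture raised the members called in polysomal against total RNA over both vectors from 0 to 5, and the genes called from 1310 to 3512. With that block and each culture left out, 2 to 4 members passed, and 839 to 3117 of all genes did. Without the block and with each replicate left out, 0 members passed. For the vectors, same-numbered control and RBMX libraries share only a number (r from -0.168 to 0.340), and the replicate block changed no call of a member and moved the genes called from 24 to 13 in total and from 7 to 3 in polysomal RNA. It moved them from 12 to 6 for the fractions of control cells, from 196 to 4 for those of RBMX cells and from 3 to 5 for the interaction.

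Small effects changed sign. Median-ratio rescaling turned HOXD10 in polysomal RNA to 0.017. With each replicate left out the log2 fold change between vectors ran from -0.12 to 0.021 for HOXD10 and from -0.035 to 0.057 for HOXD3 in total RNA, and from -0.094 to 0.052 for HOXD10, from -0.0025 to 0.20 for HOXD3 and from -0.076 to 0.0019 for HOXD11 in polysomal RNA. The interaction ran from -0.17 to 0.0026 for HOXD13, from -0.060 to 0.078 for HOXD11, from -0.066 to 0.027 for HOXD9, from -0.14 to 0.11 for HOXD8, from -0.045 to 0.025 for HOXD4, from -0.036 to 0.16 for HOXD3 and from -0.023 to 0.054 for HOXD1. Polysomal against total RNA of HOXD3 ran from -0.0076 to 0.085. The cause was not tested.

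Over all genes, the calls in total RNA were 24, but 62 with a minimum of 0.1 FPKM, 77 without a filter, 60 with all 12 libraries, 40 without control replicate 3 and 178 without RBMX replicate 3. In polysomal RNA they were 7, but 14, 31, 22, 11 and 126 in the same order, 14 without control replicate 1 and 11 without RBMX replicate 2. For the fractions of control cells 12 calls became 41 with all 12 libraries, 20 without control replicate 1 and 199 without control replicate 3. For those of RBMX cells 196 calls became 61 without a filter, 70 after quantile normalization and 21 with all 12 libraries, and 21 to 23 when any RBMX replicate was left out. The 3 calls of the interaction became 4 to 7 with each replicate left out. Over both vectors the calls ran from 153 to 3337 with each replicate left out. Depth cannot be read from FPKM, so no limit of detection is given for HOXD12.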
